A study of Rattus norvegicus with 9 samples.

Results

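The genes described here are the 34 that carry out or directly govern the oxidation of fatty acids in mitochondria and peroxisomes, measured by RNA sequencing of rat kidney. They were chosen by symbol from a named list. All 34 were found among the 19367 genes of the deposited table, and all 34 were expressed well enough to be tested (13127 genes in all had at least 1 FPKM in at least 3 libraries). The choice rested on known function, and the list was drawn up with earlier results of these data in view.

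The 9 kidney libraries formed 3 groups of 3. WKY (Wistar-Kyoto, a strain with normal blood pressure) served as controls, SHR (spontaneously hypertensive rats, a related inbred strain that becomes hypertensive) formed the untreated disease group, and a further group of SHR received dapagliflozin. Dapagliflozin blocks SGLT2, the glucose cotransporter of the early proximal tubule, and was given at 10 mg/kg per day by mouth for 8 weeks, while both other groups received water over the same time. All rats were 3 months old at the start. The strain field reads Wistar-Kyoto in every sample and another field names saline as the control treatment, so groups follow the sample titles. The labels do not tie libraries to single animals, and p-values measure the spread between these libraries. Levels are in FPKM, read fragments scaled for the length of the transcript and the size of the library, so levels can be set side by side between genes.

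Fatty acids are activated to acyl-CoA by synthetases, carried into mitochondria by the carnitine shuttle and shortened there by repeated rounds of dehydrogenation, hydration, a further oxidation and thiolytic cleavage, with electrons passed on through the electron-transferring flavoprotein. Very long and branched chains are shortened first in peroxisomes. The proximal tubule is the part of the kidney most dependent on this fuel, and the nuclear receptor PPAR-alpha is a known activator of many of these genes.

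Promoter sequence was at hand for 30 of the 34 genes, from RefSeq with the build GRCr8 (the deposited values rest on the older build Rnor_6.0); Acaa2, Acadl, Cpt1b and Decr1 had no entry. The direct repeat AGGTCANAGGTCA, to which PPAR-alpha and its partner are known to bind, was searched on both strands with up to 2 mismatches in its 12 fixed letters, over 250 bases before to 50 bases after each annotated start. It was found in 4 of the 30 (13.3%), beside 1263 of all 33469 windows of that length (3.77%). The members were counted by gene and the background by window, and there were more windows than the 19367 genes of the table. The shares are therefore not like for like. A match is a description of letters and not a binding site, and none was tested for an effect. The 4 windows of 29 bases are printed because they are the stretches of these genes closest to that element, with the matching letters in capitals.
Acadvl, chr10:55236702-55236730, minus strand, 1 mismatch: gggagaagAGGTCAGTGGTCAaggcttca
Crat, chr3:34087302-34087330, minus strand, 2 mismatches: gacgttcaAGGACACCGGTCAgacttgga
Etfa, chr8:64788099-64788127, minus strand, 2 mismatches, repeat on the opposite strand: gcacacccTTACCTTTGCCCTactcccaa
Slc25a20, chr8:118243580-118243608, plus strand, 2 mismatches, just after the start: cttaatgtAGGTGAAAGGTCGgtgtagcc
None of these 4 genes was called in any comparison below, and 3 of them (Acadvl, Crat and Etfa) were the least variable of the 34.

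Another stretch is shown because a pair of members share it. Hadhb and Hadha, which encode the subunits of the mitochondrial trifunctional protein, lie head to head with 243 bases between their outermost annotated starts. The 193 of these bases nearest to Hadhb are printed on the plus strand, the strand of Hadha, with the CCGCCC box (the letters of a GC box) in capitals.
Hadhb and Hadha, chr6:31907558-31907750, plus strand: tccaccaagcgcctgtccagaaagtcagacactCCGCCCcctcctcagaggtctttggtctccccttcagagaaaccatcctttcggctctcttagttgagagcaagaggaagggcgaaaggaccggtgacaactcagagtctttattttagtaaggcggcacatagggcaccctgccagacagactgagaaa
The stretch had a GC content of 53.4%. On either strand, CCGCCC occurred in 21 of the 30 member promoters (70.0%) and in 33.1% of all windows. Here too the members were counted by gene and the background by window. The levels of this pair are given with the trifunctional protein below.

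The fatty acid oxidation genes made up a similar share of all FPKM in the 3 groups. Their summed FPKM lay between 2787 and 3439 per library, which was 0.493% to 0.610% of all FPKM, and the group means of that sum were 3208 ± 215 in WKY, 3082 ± 191 in SHR and 3062 ± 286 in treated SHR (SD, n = 3). Levels differed widely between members. Acadm, the medium-chain acyl-CoA dehydrogenase, stood highest at a mean of 332 FPKM over the 9 libraries, followed by Etfb at 271, Pdk2 at 258 and Hadh at 213. Angptl4 at 1.74 FPKM and Pdk4 at 5.10 FPKM stood lowest. The steadiest members over all 9 libraries were Etfa, Acadvl and Crat, with coefficients of variation of 5.40%, 5.61% and 5.65%, and the most variable were Angptl4 at 71.6%, Acot1 at 47.2% and Cpt1b at 36.0%.

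**Figure D1:**
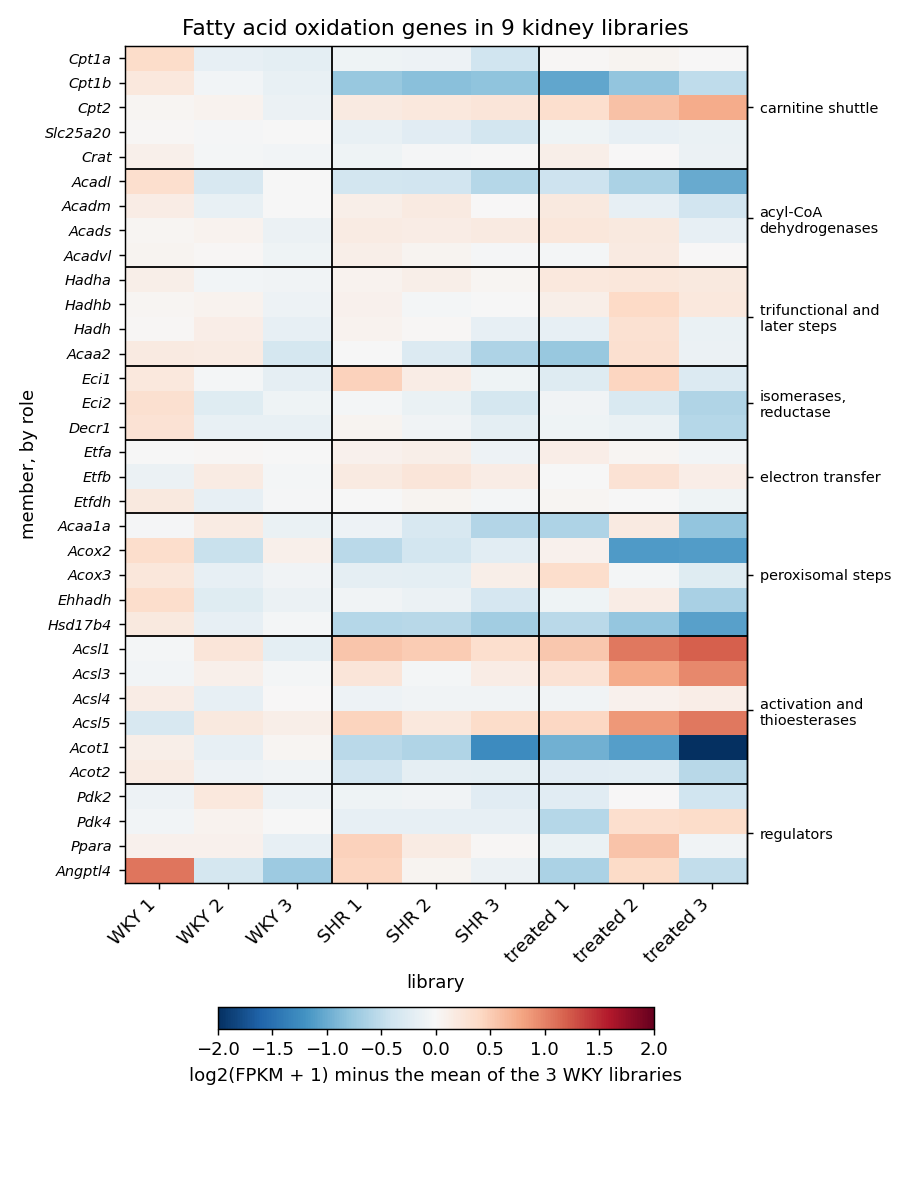
Colours give log2(FPKM + 1) of each of the 34 genes (rows, grouped by role) in each of the 9 libraries (columns), minus the mean of the 3 WKY libraries. Cpt1b, Hsd17b4 and Acot1 are blue in all 6 SHR libraries, Acsl1 and Cpt2 are red in all 6, and most other rows stay pale.

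Markers of several kidney cell types moved with the groups, and some also differed between libraries of one group. The mean log2(FPKM + 1) of 16 proximal tubule markers was 7.69 to 7.99 in WKY, 7.48 to 7.88 in SHR and 6.99, 7.51 and 6.43 in treated libraries 1, 2 and 3. All 16 had lower means in treated SHR than in either other group, with 2 called against WKY, and none was at 0 in any library. The same mean over 8 collecting duct markers was 5.10 to 5.77 in WKY, 6.14 to 6.51 in SHR and 6.64 to 7.37 in treated SHR, and over 8 intercalated cell markers it was 6.36 to 6.82, 7.02 to 7.60 and 7.49 to 8.29. All 8 markers of each were called higher in treated SHR than in WKY, as were all 5 testable markers of the distal convoluted tubule (4.71 to 5.35, 5.09 to 5.38 and 5.42 to 6.17) and 3 of 8 podocyte markers (3.78 to 5.02, 4.88 to 5.58 and 4.98 to 5.71). The mean of 8 late proximal tubule markers was 6.47, 5.33 and 6.11 in WKY libraries 1 to 3, 6.02, 6.13 and 5.95 in SHR and 6.15, 4.94 and 4.91 in treated SHR. Among these 8, only Acsm3 had a higher mean in SHR than in WKY, at 53.4, 1001 and 774 FPKM in WKY, SHR and treated SHR. The other 7 had lower means in SHR than in WKY. The mean of 8 early proximal tubule markers, some of them also among the 16, was 5.69, 6.88 and 6.23, 6.53, 5.91 and 5.27 and 4.41, 6.15 and 5.07 in the same order, lowest in treated library 1. Slc5a2, the gene of SGLT2 and a marker of that early segment, measured 9.75, 70.3 and 43.5 FPKM in WKY, 42.9, 23.7 and 2.69 in SHR and 0.63, 20.8 and 8.35 in treated SHR. In bulk tissue, fewer cells of a type and less RNA per cell cannot be told apart. Treated library 3 had the lowest proximal tubule mean and the highest collecting duct mean of the 9 libraries, and library 1 gave the lowest treated values of Cpt2, Acsl1, Acsl3 and Acsl5, so the calls that change without either of them are given below. Because library 1 was picked by these same values, a larger rise of these genes without it follows in part from that choice.

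In SHR against WKY, the question being how the hypertensive strain differs from its control, 1 of the 34 genes was called, Cpt1b, which was lower. Called means an adjusted p under 0.05 (limma on log2(FPKM + 1), adjusted over all 13127 genes). Unless another fit is named, it refers to the fit of all 9 libraries as deposited, with equal weights. That 1 gene is 2.94% of the members, beside 2.96% of all genes tested (1.84% higher, 1.12% lower), a share near the background. Of the members, 15 had higher and 19 lower means in SHR (10 and 24 when libraries were rescaled by median of ratios), and their median log2 change was -0.06 beside 0.07 over all genes. The 3 SHR libraries did not overlap the 3 WKY libraries for 11 members (4 higher, 7 lower), beside 28.4% of all genes (20.3% higher, 8.11% lower). The call of Cpt1b was lost without WKY library 1 or 3 or without any one of the SHR libraries, with log2 changes of -0.88 to -0.69 over all 9 omissions of a library.

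In dapagliflozin-treated SHR against SHR, the question being what the drug changes, 0 of the 34 genes were called, and 0% of all genes were called, in either direction. At an unadjusted p under 0.05 stood 5 members, beside 15.2% of all genes, and the lowest adjusted p of a member was 0.281 (limma). Of the members, 16 had higher and 18 lower means in treated SHR (12 and 22 with median-of-ratios scaling), with a median log2 change of -0.01 beside 0.04 over all genes. The groups did not overlap for Cpt1a, Cpt2, Hadha, Hadhb and Acsl3, all 5 higher in treated SHR, beside 12.6% of all genes not overlapping in that direction, 6.44% in the other and 19% in either. Without treated library 1, Cpt2, Acsl1, Acsl3 and Pdk4 were called higher, and 6.32% of all genes were called. With libraries weighted by their quality (array weights), 8 members and 27.3% of all genes were called.

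In dapagliflozin-treated SHR against WKY, 8 of the 34 genes were called, 4 higher (Cpt2, Acsl1, Acsl3 and Acsl5) and 4 lower (Cpt1b, Acadl, Hsd17b4 and Acot1). That is 23.5% of the members beside 22.9% of all genes tested, again a share near the background. Over all genes 16.8% were called higher and 6.09% lower. Of the members, 16 had higher and 18 lower means, but only 6 had higher means with median-of-ratios scaling, which moved the median log2 change of all genes from 0.11 to -0.01. The median log2 change of the members was -0.01. The groups did not overlap for 12 members (6 higher, 6 lower), beside 38.6% of all genes (28.2% higher, 10.4% lower). This contrast shares its control libraries with the first and its treated libraries with the second, and it combines strain and drug.

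**Figure D2:**
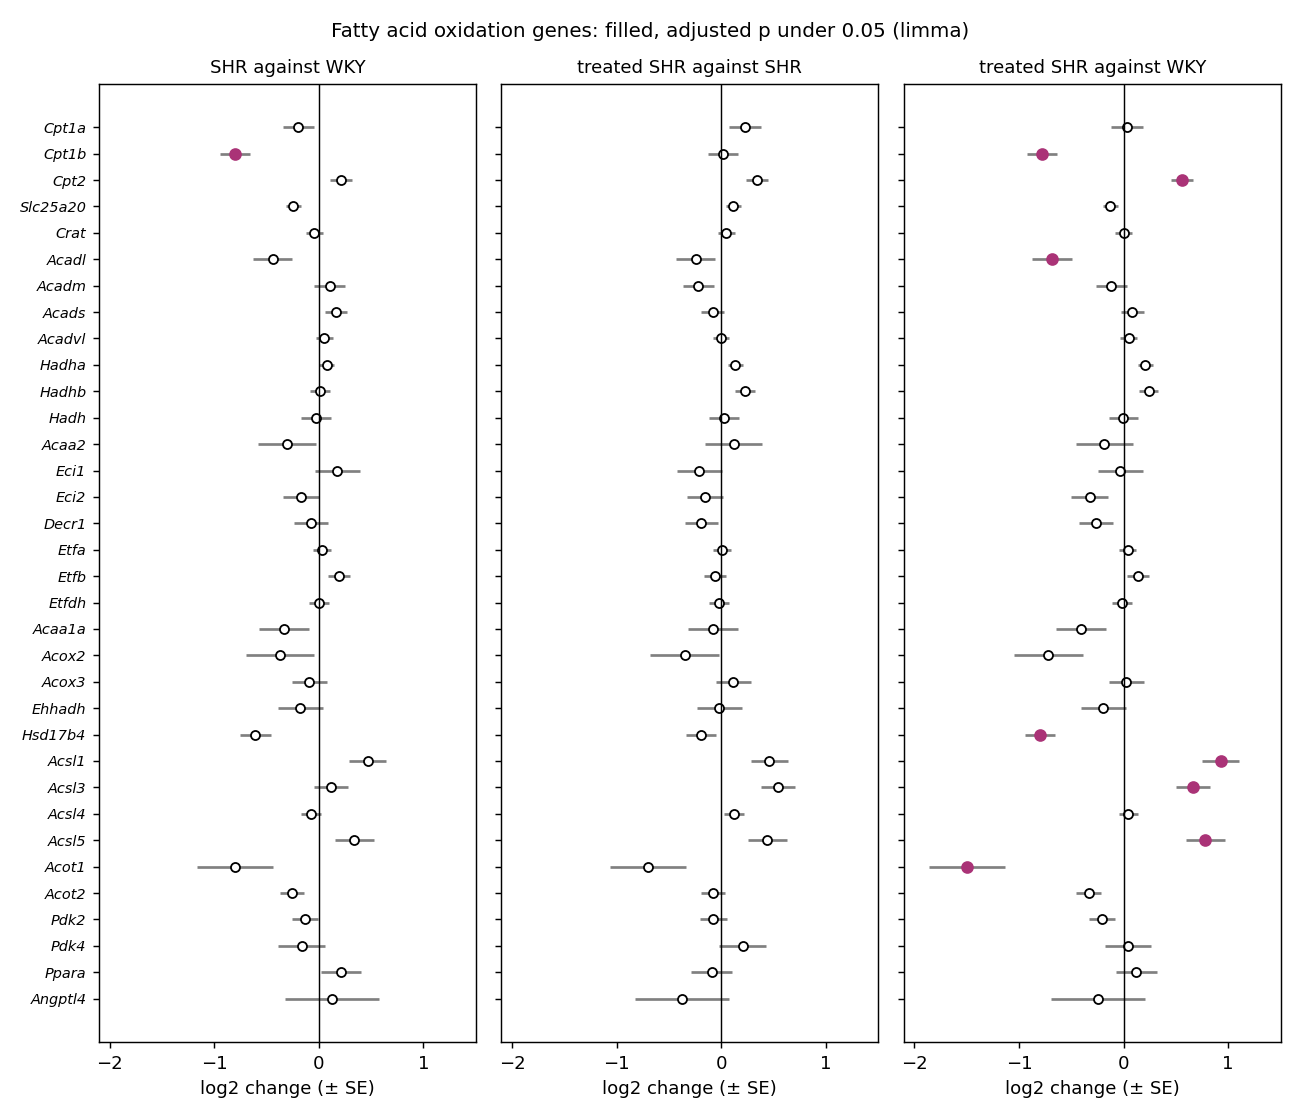
Points give the log2 change of each of the 34 genes with its standard error in the 3 comparisons (limma on log2(FPKM + 1), 3 libraries per group), and filled points have an adjusted p under 0.05. Cpt1b is the only filled point in SHR against WKY, no point is filled in treated SHR against SHR, and 8 are filled in treated SHR against WKY.

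The carnitine shuttle held both a called fall and a called rise. Cpt1b (gene ID 25756), the muscle isoform of the outer-membrane transferase that commits acyl groups to mitochondria, measured 12.3, 10.1 and 9.34 FPKM in the WKY libraries, 5.81, 5.47 and 5.56 in SHR, with 4.60, 5.63 and 7.08 in treated SHR. Every SHR library, treated or not, lay below every WKY library, and the untreated and treated SHR overlapped. The log2 change was -0.80 (SE 0.14, adjusted p = 0.0219) in SHR against WKY, 0.02 (SE 0.14, adjusted p = 0.966) in treated SHR against SHR and -0.78 (SE 0.14, adjusted p = 0.0113) in treated SHR against WKY. The last of these was kept in all 9 omissions of a library. Markers of skeletal and heart muscle, tissues in which this isoform is abundant, were near 0: 0 of 10 reached the level needed for a test, and their summed FPKM was 0.58 to 2.41 per library. For adipocyte markers the summed FPKM was 28.5 to 83.6 per library. Their mean log2(FPKM + 1) was 1.62 to 1.93 in WKY, 1.63 to 1.76 in SHR and 1.33 to 1.68 in treated SHR. What part muscle or fat cells had in the Cpt1b values was not tested.

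Cpt2 (gene ID 25413), the inner-membrane transferase that returns acyl groups to CoA, was the only one of the 34 members whose 3 groups were fully separate. Its libraries read 21.8, 22.3 and 19.3 FPKM for WKY, 23.9, 24.7 and 25.2 for SHR and 27.0, 32.3 and 35.9 for treated SHR, so each group lay wholly above the one before. In log2 terms the change was 0.21 (SE 0.11, adjusted p = 0.303) between the strains, 0.35 (SE 0.11, adjusted p = 0.281) with the drug, and 0.56 (SE 0.11, adjusted p = 0.0120) in treated SHR against WKY, and only the last passed the test. Without treated library 1 the drug contrast of Cpt2 was 0.45 (adjusted p = 0.0344), in a fit that called 6.32% of all genes. Without WKY library 3 the call against WKY was lost.

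The other 3 genes of the shuttle passed no test. Slc25a20, the carnitine-acylcarnitine carrier of the inner membrane, measured 56.0, 54.1 and 54.9 FPKM in WKY, 49.5, 46.9 and 42.7 in SHR and 51.7, 49.0 and 50.1 in treated SHR, so WKY lay above both SHR groups and the latter overlapped (log2 change -0.24 in SHR against WKY, SE 0.07, adjusted p = 0.120). Crat, the carnitine acetyltransferase and the highest of the shuttle genes, measured 93.6, 84.2 and 83.6, 81.8, 85.2 and 86.2 and 94.2, 87.8 and 80.0 FPKM in the same order of groups, which overlapped throughout. Cpt1a, the liver isoform of the outer-membrane transferase, averaged 50.7 ± 11.8, 43.7 ± 5.26 and 51.0 ± 0.669 FPKM (SD, n = 3), and its 3 treated libraries, at 50.9, 51.7 and 50.4, lay above the 3 SHR libraries, at 46.8, 46.7 and 37.6 (log2 change 0.23, SE 0.15, adjusted p = 0.476).

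Among the acyl-CoA dehydrogenases, which catalyse the first step of each round, 1 of 4 was called, and only in treated SHR against WKY. Acadl (gene ID 25287), the long-chain enzyme, measured 227, 143 and 177 FPKM in WKY, 139, 137 and 119.9 in SHR and 134, 115 and 88.9 in treated SHR. All 6 SHR libraries lay below the lowest WKY library, but WKY library 1 stood far above the other two. This gave a log2 change of -0.44 (SE 0.19, adjusted p = 0.246) in SHR against WKY, -0.24 (SE 0.19, adjusted p = 0.543) in treated SHR against SHR and -0.68 (SE 0.19, adjusted p = 0.0343) in treated SHR against WKY. That call was lost in 6 of the 9 omissions of a library (without WKY 1 or 3, SHR 1 or 2, or treated 2 or 3), with log2 changes of -0.85 to -0.51.

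Acadm, the medium-chain enzyme and the most abundant of the 34 members, measured 365, 299.7 and 330.5 FPKM in WKY, 361, 375 and 331 in SHR and 380.3, 296 and 253 in treated SHR, and all 3 groups overlapped. Its adjusted p was 0.721, 0.488 and 0.587 in the 3 comparisons in the order above. The treated libraries spread over a wide range, and treated library 3 was the lowest of all 9. Acads, the short-chain enzyme, averaged 54.9 ± 3.69, 61.5 ± 0.485 and 58.6 ± 8.73 FPKM (SD, n = 3), with no overlap between SHR and WKY (log2 change 0.17, adjusted p = 0.425). Acadvl, the very-long-chain enzyme of the inner membrane, averaged 88.8 ± 4.43, 92.0 ± 4.41 and 92.1 ± 7.37 FPKM and overlapped in all comparisons.

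None of the 4 genes of the mitochondrial trifunctional protein and the later steps was called in any of the 3 comparisons with equal weights. With array weights all 4 were called in treated SHR against WKY, where 67.1% of all genes were called. Hadhb was also called with array weights in treated SHR against SHR, where 27.3% of all genes were called. Hadha, the subunit with hydratase and long-chain dehydrogenase activity, measured 149, 132 and 131 FPKM in WKY, 144, 148 and 141 in SHR and 159, 159.8 and 157 in treated SHR. The treated libraries lay above all 6 others within a narrow range, with a log2 change of 0.13 (SE 0.07, adjusted p = 0.386) against SHR and 0.21 (SE 0.07, adjusted p = 0.0665) against WKY. Hadhb, the thiolase subunit whose gene lies head to head with Hadha at the promoter printed above, measured 159, 164 and 145, 165, 151 and 155 and 169, 205 and 180.1 FPKM. It too was highest in all 3 treated libraries, by 0.23 (SE 0.09, adjusted p = 0.314) against SHR and 0.24 (SE 0.09, adjusted p = 0.0899) against WKY. Hadhb was called higher against WKY without treated library 1 (log2 change 0.30, adjusted p = 0.0383). The ratio of Hadha to Hadhb FPKM stayed within 0.779 to 0.981 in the 9 libraries, with group means of 0.881 ± 0.0653 in WKY, 0.919 ± 0.0564 in SHR and 0.863 ± 0.0816 in treated SHR (SD, n = 3).

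Hadh, the dehydrogenase for medium and short chains and the highest gene of these steps, measured 217, 235 and 190.1 FPKM in WKY, 224, 216 and 190.1 in SHR and 189.8, 263 and 194 in treated SHR, with no separation between groups and adjusted p from 0.932 to 0.994. Acaa2, the thiolase that closes the round for medium chains, averaged 119.9 ± 23.6, 97.1 ± 20.1 and 109 ± 39.3 FPKM (SD, n = 3). Its treated libraries ran from 69.7 to 148 FPKM, which took in both the lowest and the highest value of the 9.

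The isomerases and the reductase that prepare unsaturated fatty acids for the cycle were not called in any comparison with equal weights. With array weights Eci1 and Eci2 were called in treated SHR against WKY, where 67.1% of all genes were called. Eci1, an enoyl-CoA isomerase and the highest of the 3, measured 161, 135 and 122 FPKM in WKY, 191, 154 and 131 in SHR and 115, 188 and 115 in treated SHR, with overlapping groups. Eci2, the second isomerase, averaged 72.5 ± 15.2, 63.7 ± 7.07 and 57.5 ± 10.5 FPKM, and Decr1, the dienoyl-CoA reductase, averaged 122 ± 22.5, 115 ± 10.1 and 101 ± 17.7 FPKM (SD, n = 3). All 3 had lower means in treated SHR than in SHR, with log2 changes of -0.21 to -0.16, and for each the lowest value of the 9 libraries was that of treated library 3.

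The genes that pass electrons from the dehydrogenases to the respiratory chain were among the steadiest. Etfb, the beta subunit of the electron-transferring flavoprotein, measured 231, 279.6 and 243 FPKM in WKY, 284, 296 and 278 in SHR and 249, 305 and 274 in treated SHR. These values overlapped in every comparison, and the log2 change of 0.19 in SHR against WKY had an adjusted p of 0.334. Etfa, the alpha subunit, lay between 172 and 203 FPKM over all 9 libraries, and Etfdh, the oxidoreductase that hands the electrons to ubiquinone, between 63.1 and 81.5 FPKM. The ratio of Etfa to Etfb FPKM was 0.742 ± 0.0657 in WKY, 0.663 ± 0.0392 in SHR and 0.696 ± 0.103 in treated SHR (SD, n = 3).

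Of the 5 peroxisomal genes, Hsd17b4 was called. Hsd17b4 (gene ID 79244), the D-bifunctional protein that performs the hydration and the oxidation that follows on very long and branched chains and the highest of the 5, measured 170.1, 132 and 143 FPKM in WKY, 98.7, 101 and 90.9 in SHR and 101, 86.0 and 68.7 in treated SHR. All 6 SHR libraries lay below all 3 WKY libraries, and the 2 SHR groups overlapped. Its log2 change was -0.61 (SE 0.15, adjusted p = 0.0664) in SHR against WKY, which missed the threshold, -0.20 (SE 0.15, adjusted p = 0.526) in treated SHR against SHR, and -0.80 (SE 0.15, adjusted p = 0.0108) in treated SHR against WKY. The last was kept in all 9 omissions of a library, and the strain contrast was called without treated library 1 (adjusted p = 0.0299) or 3. Those strain fits called 4.77% and 3.41% of all genes.

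All 5 peroxisomal genes had lower means in SHR than in WKY, with log2 changes of -0.61 to -0.09, and their summed FPKM was 348 to 431 in WKY, 268 to 302 in SHR and 205 to 313 in treated SHR. Apart from Hsd17b4, these genes overlapped between SHR and WKY, with adjusted p of 0.459 to 0.787 (limma). Hsd17b4 was the largest part of the sum, at a mean of 148 FPKM in WKY and 96.8 in SHR. Acaa1a, the peroxisomal thiolase, averaged 100.3 ± 10.4, 79.8 ± 13.7 and 78.5 ± 30.8 FPKM (SD, n = 3), and its reads can be shared with the near-identical Acaa1b. Ehhadh, the L-bifunctional protein, averaged 67.4 ± 15.7, 58.7 ± 5.47 and 59.3 ± 15.8 FPKM. Of the 2 branched-chain oxidases in the list, Acox2 averaged 41.7 ± 11.5, 31.3 ± 3.58 and 26.5 ± 14.6 FPKM and Acox3 22.1 ± 3.40, 20.7 ± 2.75 and 22.7 ± 4.97 FPKM. The Acox2 libraries of treated SHR lay at 43.3, 17.9 and 18.2, with the last 2 below all other libraries. Without treated library 1, Acox2 was called lower in treated SHR against WKY (log2 change -1.12, adjusted p = 0.00623), and Acaa1a was called lower there without treated library 2 (adjusted p = 0.0366). Those fits called 36.5% and 8.2% of all genes.

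Activation held 3 of the 4 called rises. Acsl1 (gene ID 25288), the main long-chain acyl-CoA synthetase of oxidative tissues, measured 46.2, 56.7 and 41.4 FPKM in WKY, 70.7, 68.1 and 60.7 in SHR and 69.8, 99.7 and 111 in treated SHR. WKY lay below both SHR groups, while treated library 1 fell among the untreated SHR. The log2 change was 0.47 (SE 0.18, adjusted p = 0.200) in SHR against WKY, 0.46 (SE 0.18, adjusted p = 0.295) in treated SHR against SHR and 0.93 (SE 0.18, adjusted p = 0.0122) in treated SHR against WKY. Without WKY library 3 that last call was lost. Without treated library 1, its lowest treated value, the drug contrast was 0.66 (adjusted p = 0.0360), in a fit that called 6.32% of all genes.

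Acsl3 (gene ID 114024), the synthetase of the endoplasmic reticulum and lipid droplets, measured 30.1, 33.7 and 30.3 FPKM in WKY, 37.5, 30.6 and 34.7 in SHR and 38.4, 52.8 and 62.2 in treated SHR. The untreated groups overlapped, and all 3 treated libraries lay above them, library 1 only just. The fitted log2 change was 0.54 (SE 0.16, adjusted p = 0.281) in treated SHR against SHR and 0.66 (SE 0.16, adjusted p = 0.0232) in treated SHR against WKY, where it was 0.12 (adjusted p = 0.698) between the untreated strains. Without treated library 1 the drug contrast was 0.73 (adjusted p = 0.0242), in the same fit that called 6.32% of all genes.

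Acsl5 (gene ID 94340), the synthetase found on mitochondria and endoplasmic reticulum, measured 11.8, 17.4 and 16.5 FPKM in WKY, 20.8, 17.6 and 19.7 in SHR and 20.4, 28.4 and 32.4 in treated SHR. It had the same order as Acsl1, with WKY below both SHR groups and treated library 1 within the SHR range. Its log2 change came to 0.78 (SE 0.18, adjusted p = 0.0215) in treated SHR against WKY, 0.44 (adjusted p = 0.316) with the drug and 0.34 (adjusted p = 0.335) between the strains. The calls of Acsl3 and Acsl5 against WKY were both lost without WKY library 1 or 3 or treated library 2 or 3. Acsl4, the arachidonate-preferring synthetase, did not follow them and lay between 15.6 and 19.6 FPKM in all 9 libraries (log2 change 0.05, adjusted p = 0.740, in treated SHR against WKY).

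Of the 2 thioesterases among the members, which release the fatty acid from CoA again, Acot1 was called lower and Acot2 was not called. Acot1 (gene ID 50559), the cytosolic enzyme, measured 40.6, 33.3 and 38.5 FPKM in WKY, 25.4, 24.3 and 14.9 in SHR and 18.7, 16.9 and 6.09 in treated SHR. Every SHR library lay below every WKY library, and treated library 3 was by far the lowest. The log2 change was -0.80 (SE 0.36, adjusted p = 0.270) in SHR against WKY, -0.70 (SE 0.36, adjusted p = 0.377) in treated SHR against SHR and -1.50 (SE 0.36, adjusted p = 0.0239) in treated SHR against WKY. That call was lost without WKY library 1 or 3, with log2 changes of -1.77 to -1.03 over the 9 omissions. Acot2, its mitochondrial near-copy, averaged 33.5 ± 3.52, 27.9 ± 2.28 and 26.5 ± 3.53 FPKM (SD, n = 3), with WKY again above both SHR groups (log2 change -0.33, adjusted p = 0.0695, in treated SHR against WKY). Acot2 was called lower in that comparison without treated library 1 (log2 change -0.39, adjusted p = 0.0497), where 36.5% of all genes were called. The coding sequences are nearly identical, and how the authors shared such reads is not given in the sources used here, so the split between the 2 genes is uncertain.

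**Figure D3:**
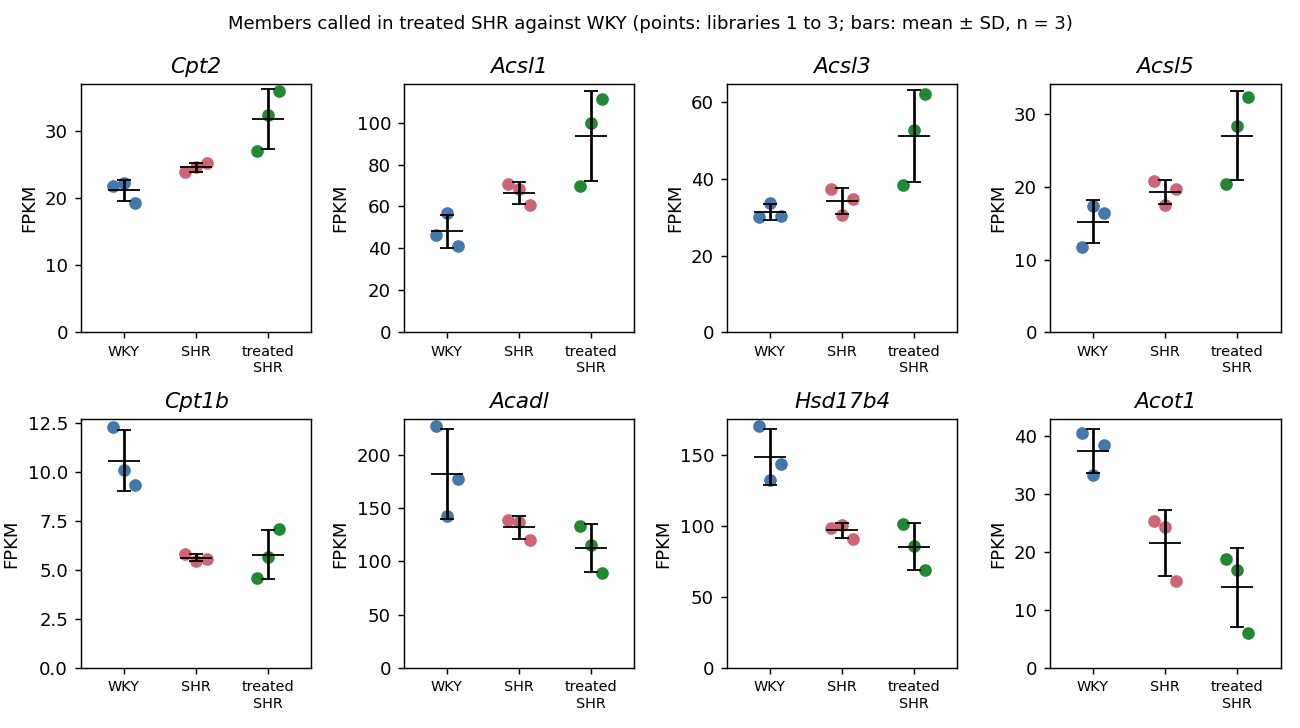
Each panel shows the FPKM of one of the 8 genes called in treated SHR against WKY, with a point per library and the mean ± SD (n = 3) per group, on axes that start at 0. Cpt2, Acsl1, Acsl3 and Acsl5 are highest in treated SHR, and Cpt1b, Acadl, Hsd17b4 and Acot1 are highest in WKY.

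The regulators were not called in any comparison of all 9 libraries with equal weights. With array weights Pdk4, Ppara and Angptl4 were called in treated SHR against WKY, where 67.1% of all genes were called. Pdk4 was also called with array weights in treated SHR against SHR, where 27.3% of all genes were called. Pdk2, a kinase that shuts off pyruvate dehydrogenase and the highest gene of this group, measured 258, 319 and 257 FPKM in WKY, 261, 263 and 236 in SHR and 237, 278 and 209.6 in treated SHR, with overlap throughout. Pdk4, the kinase induced by fasting in many tissues, measured 4.93, 5.46 and 5.13, 4.48, 4.50 and 4.53 and 3.14, 6.77 and 6.94 FPKM. The 3 SHR libraries lay close together and just below WKY (log2 change -0.16, adjusted p = 0.697), while the treated libraries held the lowest value of all 9 and the 2 highest. Without treated library 1, which held that lowest value, Pdk4 was called higher against SHR (log2 change 0.51, adjusted p = 0.0296) and against WKY (0.35, adjusted p = 0.0184). Those fits called 6.32% and 36.5% of all genes. Ppara, the gene of PPAR-alpha itself, averaged 8.45 ± 0.930, 10.0 ± 1.72 and 9.51 ± 3.02 FPKM (SD, n = 3) and overlapped in every comparison.

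Angptl4, a secreted inhibitor of lipoprotein lipase and a known PPAR target, measured 4.47, 1.04 and 0.580 FPKM in WKY, 2.52, 1.70 and 1.40 in SHR and 0.680, 2.39 and 0.850 in treated SHR. WKY library 1 was the highest and WKY library 3 the lowest of all 9, so that the spread within WKY covered every other value. For this reason the mean FPKM was higher in WKY than in SHR while the log2 change in SHR against WKY was 0.12 (SE 0.45, adjusted p = 0.897).

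Paralogs were then compared within each library. The plain ratio of FPKM does not depend on how libraries are scaled, while the log2 ratio, with 1 added to each FPKM, can. The ratio of Cpt1b to Cpt1a was 0.191, 0.227 and 0.215 in WKY, 0.124, 0.117 and 0.148 in SHR and 0.0903, 0.109 and 0.141 in treated SHR. Cpt1a was thus the more abundant isoform in every library, and WKY did not overlap either SHR group. The mean log2 ratio (pseudocount 1) differed by -0.60 in SHR against WKY and by -0.81 in treated SHR against WKY. Both had an exact two-sided permutation p of 0.10, the smallest that 3 against 3 libraries allow, so no ratio could pass the threshold (adjusted p = 0.24 over 12 tests).

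The ratio of Acot1 to Acot2 was 1.08, 1.07 and 1.21 in WKY, 1.01, 0.829 and 0.513 in SHR and 0.661, 0.591 and 0.272 in treated SHR, which again left WKY above both SHR groups (log2 difference -0.54 and -1.16, exact permutation p = 0.10 each). Acsl4 to Acsl1 was 0.376 ± 0.0877 in WKY, 0.251 ± 0.0230 in SHR and 0.200 ± 0.0349 in treated SHR (SD, n = 3), without overlap only in treated SHR against WKY (log2 difference -0.88, exact permutation p = 0.10). Pdk4 to Pdk2 was 0.0187 ± 0.00145, 0.0179 ± 0.00119 and 0.0236 ± 0.00995 in the same order, and the groups overlapped. None of the 4 ratios separated treated from untreated SHR.

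Within each group, some libraries held the highest value of many members and others of few. WKY library 1 held the highest WKY value of 22 members, WKY 2 of 12 and WKY 3 of 0. SHR libraries 1, 2 and 3 held the highest SHR value of 19, 9 and 6 members, and treated libraries 1, 2 and 3 of 13, 14 and 7. Several sets peaked together. Slc25a20, Crat, Acadl, Acadm, Eci2, Decr1, Etfdh, Acox2, Acox3, Hsd17b4 and Acot1, 11 members, were highest in library 1 of both WKY and treated SHR. In both groups that library also had the highest mean of the late proximal tubule markers. In SHR that mean was highest in library 2, where Acadm, Etfdh and Hsd17b4 peaked. The others of the set peaked in SHR 1 or SHR 3. The part of late proximal tubule cells in the members' values was not tested. Another 9 members (Cpt1a, Acadvl, Hadha, Acaa2, Eci1, Ehhadh, Acot2, Ppara and Angptl4) were highest in WKY 1 and treated 2. Cpt2, Acsl1, Acsl3, Acsl5 and Pdk4 were highest in WKY 2 and treated 3, and Hadhb, Hadh, Etfb, Acaa1a and Pdk2 in WKY 2 and treated 2. The other 4 were Cpt1b and Acsl4, highest in WKY 1 and treated 3, and Acads and Etfa, highest in WKY 2 and treated 1. Within their groups, WKY 2 and treated 3 also had the highest means of the collecting duct, intercalated cell, distal convoluted tubule and podocyte markers. In SHR these means were highest in library 3, where Cpt2 and Pdk4 peaked, while Acsl1, Acsl3 and Acsl5 peaked in SHR 1. The means of the proximal tubule markers and of the early ones were highest in WKY 2, SHR 1 and treated 2. Of the members highest in WKY 2 and treated 2, Hadhb, Hadh and Acaa1a peaked in SHR 1. Etfb and Pdk2 peaked in SHR 2. The part of these cell types in the members' values was not tested either. The sets of members were read off the values and are given as a description, with no test.

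**Figure D4:**
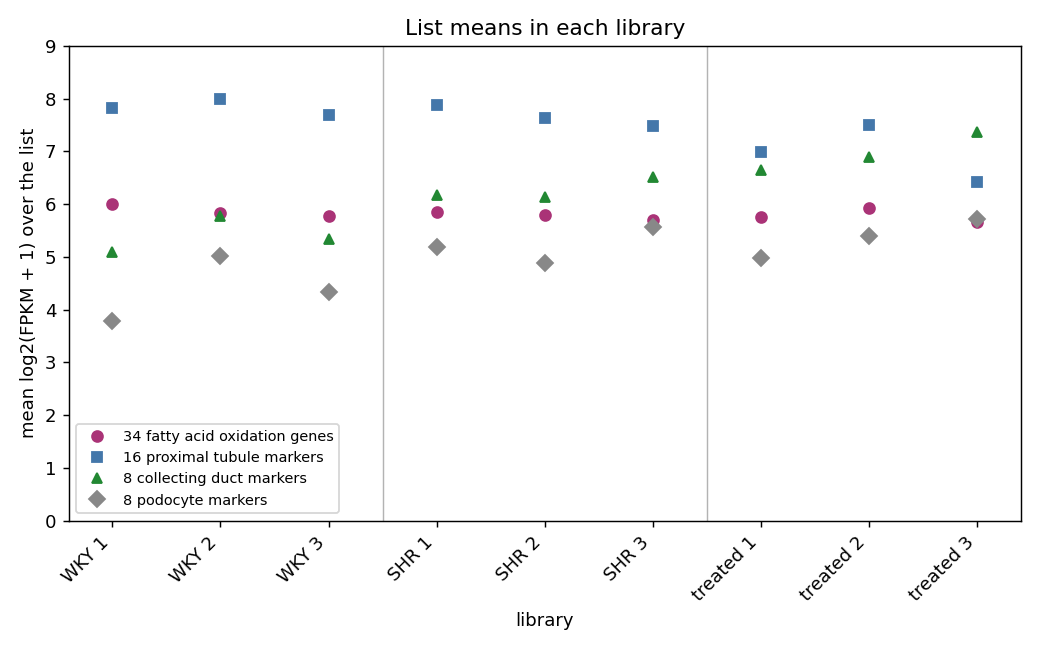
The mean log2(FPKM + 1) of the 34 fatty acid oxidation genes and of markers of 3 kidney cell types is shown for each of the 9 libraries. The fatty acid oxidation mean stays between 5.66 and 6.01, while the proximal tubule mean is lowest in treated library 3 at 6.43 and the collecting duct mean is highest there at 7.37.

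The mean log2(FPKM + 1) over the 34 members was 6.01, 5.82 and 5.77 in WKY, 5.85, 5.79 and 5.69 in SHR and 5.75, 5.92 and 5.66 in treated SHR, so the 3 groups overlapped. It was lowest in treated library 3, where the proximal tubule mean was also lowest. When the proximal tubule mean of each library was added to the model as a covariate, 0 of the 8 members called in treated SHR against WKY passed the test, and 52 of 13127 genes (0.396%) did. The covariate itself differed between the groups. With it the log2 changes in treated SHR against WKY were -0.95 for Cpt1b, -0.59 for Hsd17b4, 0.95 for Acsl1, 0.47 for Cpt2, 0.57 for Acsl3 and 0.70 for Acsl5, and they were -0.45 for Acadl and -0.48 for Acot1. Cpt1b in SHR against WKY kept its call in that model (log2 change -0.83, adjusted p = 0.0363).

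A wider list of fatty acid oxidation genes outside the 34 held 52 genes in the table, of which 50 could be tested. In SHR against WKY, 2 were called higher and 1 lower (6.00% of 50, beside 2.96% of all genes, 1.84% higher and 1.12% lower). Pecr, a peroxisomal enoyl-CoA reductase, averaged 161 ± 23.7 FPKM in WKY, 468 ± 11.2 in SHR and 307 ± 106 in treated SHR (SD, n = 3), with a log2 change of 1.54 (adjusted p = 0.00621) in SHR against WKY. Them4, a thioesterase, averaged 6.61 ± 0.370, 11.5 ± 0.270 and 12.3 ± 1.56 FPKM (log2 change 0.71, adjusted p = 0.00600). Crot, the peroxisomal carnitine octanoyltransferase, averaged 47.1 ± 5.22, 27.0 ± 1.69 and 25.1 ± 2.09 FPKM (log2 change -0.78, adjusted p = 0.00465).

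In treated SHR against SHR 0 of the 50 were called. In treated SHR against WKY, 12 were called higher (Acacb, Acad9, Acat1, Acot9, Echs1, Etfbkmt, Ivd, Nudt7, Pccb, Pecr, Pex19 and Them4) and 3 lower (Acot8, Crot and Hao2), which is 30.0% of 50 beside 22.9% of all genes (16.8% higher, 6.09% lower). Among the higher genes, Acacb, the carboxylase that makes the malonyl-CoA by which the outer-membrane transferase is inhibited, had a log2 change of 0.61 (adjusted p = 0.0220), Pccb, a subunit of propionyl-CoA carboxylase, one of 0.38 (adjusted p = 0.0130), and Ivd, the isovaleryl-CoA dehydrogenase, one of 0.26 (adjusted p = 0.0246). Hao2, a peroxisomal hydroxyacid oxidase and the highest gene of the wider list, averaged 3567 ± 437, 2944 ± 148 and 1937 ± 756 FPKM (log2 change -0.96, adjusted p = 0.0409, in treated SHR against WKY). The other genes among the highest 4 were Dbi, the acyl-CoA binding protein, at 389.8 ± 34.8, 376 ± 43.4 and 403 ± 62.9 FPKM, Phyh, the phytanoyl-CoA hydroxylase, at 359 ± 16.1, 397 ± 18.5 and 395 ± 19.6 FPKM, and Pecr.

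Of 35 partners and targets of PPAR-alpha outside the 34, 29 could be tested, and 0 were called in SHR against WKY or in treated SHR against SHR. In treated SHR against WKY, 5 were called higher (Ncoa1, Pdk1, Pnpla2, Rxra and Slc27a1) and 4 lower (Cyp4a3, Cyp4a8, Nr1h3 and Slc27a2), which is 31.0% of 29, again beside 22.9% of all genes. Rxra, the partner with which PPAR-alpha binds DNA, averaged 16.2 ± 2.17, 20.2 ± 1.05 and 21.1 ± 2.43 FPKM (SD, n = 3), and Cyp4a8, a fatty acid omega-hydroxylase, averaged 594 ± 125, 387 ± 32.1 and 271 ± 104 FPKM. Slc27a2, an acyl-CoA synthetase and fatty acid transporter of the proximal tubule, averaged 248 ± 28.2, 171 ± 18.5 and 118 ± 50.1 FPKM. The lower 4 moved in the same direction as the 16 proximal tubule markers, and whether they follow those cells was not tested.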

How the data were processed

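Gene expression was measured in 9 rat kidney libraries, 3 per group. Per the labels' protocols, RNA came from a Trizol extraction, and a BGISEQ-500 gave single reads of 50 bases. Per the submitters' processing notes, HISAT2 2.0.4, Bowtie2 2.2.5 and the build Rnor_6.0 were used; the role of each tool and the expression program are not stated there. The authors deposited FPKM per library, per the file headers, rounded to 2 decimals. Read totals are unknown; the smallest steps in low values put relative depth at 0.94 to 1.04 (41 genes). FPKM is scaled to each library, so a few abundant transcripts can shift all others, and near-identical genes can exchange reads.

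Genes with at least 1 FPKM in at least 3 libraries (13127 of 19367) were analysed as log2(FPKM + 1), which understates changes of weak genes. The test was limma 3.58.1 in R 4.3.3 with an intensity trend and a group-means model of all 9 libraries (6 residual degrees of freedom), two-sided, with Benjamini-Hochberg adjustment over all genes tested, called at 0.05. It was tested on simulated data. Ratios of paralogs were compared by exact permutation in Python 3.11.15 with scipy 1.17.1, numpy 2.4.6 and pandas 2.3.3, and plots used matplotlib 3.10.9. In each comparison 19 alternatives were tried: other scalings, pseudocount, filters and models, and each library left out. Gene IDs were matched to RefSeq (GRCr8) for names and promoters; all 34 matched under the same symbol.

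The members, the role groups, the wider lists and the markers were chosen with earlier results of these data known. Members are given in full where called in any comparison, where among the 4 smallest p of a comparison, or where highest in their role group; the others are given by means, ranges or counts. Genes of the wider pathway list are named where called or among its highest 4.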

Additional observations from a re-analysis of the deposited data

How the results depend on the processing

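Each of the 9 calls of a member kept its direction in all 19 alternatives, and the paralog log2 ratios that did not overlap between groups kept theirs in the 7 alternatives run for them. The number of members called was the same as reported under quantile normalization, a pseudocount of 0.1, no filter, a filter at 5 FPKM and no intensity trend in every comparison, and under median-of-ratios scaling it was 1, 0 and 9 in SHR against WKY, treated SHR against SHR and treated SHR against WKY. Median-of-ratios scaling moved the share of all called genes that were higher from 62.1% to 51.3% in SHR against WKY and from 73.5% to 54.2% in treated SHR against WKY. That scaling called 3.29%, 0% and 20.4% of all genes in the 3 comparisons. Fits of only the 2 groups compared called 2, 0 and 4 members, beside 3.87%, 0% and 7.82% of all genes. The proximal tubule covariate called 1, 0 and 0, beside 2.28%, 0% and 0.396%. Array weights called 9, 8 and 23, where 29.8%, 27.3% and 67.1% of all genes were called. With each library left out in turn, 0 to 2, 0 to 4 and 2 to 12 members were called. In treated SHR against WKY it was 4 without WKY 1, 2 without WKY 3, 5 without treated 3 and 12 without treated 1. The shares of all genes called in those fits were 6.14%, 4.52%, 7.2% and 36.5%, in the same order. Pearson's r of deviations across genes was -0.33 to 0.46 in 9 same-numbered pairs of libraries from different groups (median -0.195). In 18 differently numbered pairs it was -0.53 to 0.33 (median 0.0587). The highest r was that of a same-numbered pair, but the median of such pairs was the lower, so the numbers were not taken to pair the samples. With a replicate block 0, 0 and 8 members were called, beside 2.15%, 0.00762% and 20.6% of all genes. In that fit Cpt1b in SHR against WKY had an adjusted p of 0.0653 (limma). The causes of these differences were not tested. The precision of every value is limited by 3 libraries per group and an unknown read depth.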

Other observations

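Several known targets of PPAR-alpha, though not all, were highest in the same library of each group. They were noticed after their values were seen and are given as values only. Vnn1, a pantetheinase, measured 27.7, 12.9 and 8.64 FPKM in WKY libraries 1 to 3, 15.1, 10.1 and 7.0 in SHR and 4.22, 18 and 4.07 in treated SHR. Acaa1b, the near-copy of the member Acaa1a, measured 13.6, 9.77 and 8.56 FPKM in WKY, 17.4, 11.2 and 8.59 in SHR and 7.42, 29.9 and 8.53 in treated SHR. Both genes, like the member Angptl4, were highest in WKY library 1, SHR library 1 and treated library 2, and Cyp4a1, a fatty acid omega-hydroxylase, was too, at 63.4, 57.0 and 54.7 FPKM in those libraries. None of these 4 genes was called in any of the 3 comparisons. Other genes of the PPAR-alpha list peaked elsewhere, Cyp4a2 and Cyp4a3 in WKY 1, SHR 2 and treated 1, and Plin2 in WKY 1, SHR 1 and treated 3. The member Pdk4 was highest in WKY 2, SHR 3 and treated 3. Further members, Acadvl, Acaa2 and Eci1 among them, also peaked in WKY 1, SHR 1 and treated 2, so the pattern was not particular to the 4 genes.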
